A study of Mus musculus with 4 samples.

Results

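The genes described here are 7 receptors, bridging proteins and an adaptor by which phagocytes recognise and swallow dying cells: Mertk, Axl, Gas6, Pros1, Mfge8, Stab1 and Tyrobp. They were taken by symbol from the gene list of the deposited matrices, where each symbol occurred once, and make up 7 of the 21885 features counted. The rule uses symbols and no measured value, though the list was drawn up with earlier results of these data known. Their Ensembl identifiers in the files are ENSMUSG00000014361 for Mertk, ENSMUSG00000002602 for Axl, ENSMUSG00000031451 for Gas6, ENSMUSG00000022912 for Pros1, ENSMUSG00000030605 for Mfge8, ENSMUSG00000042286 for Stab1 and ENSMUSG00000030579 for Tyrobp.

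Efferocytosis is the removal of apoptotic cells by phagocytes. A dying cell turns phosphatidylserine to its outer membrane, and the lipid is either bound by a receptor directly or coupled to one by a soluble bridging protein. Mertk and Axl are receptor tyrosine kinases of the TAM family, of which Tyro3 is the remaining member, and Gas6 and protein S, encoded by Pros1, are the proteins that bridge them to the lipid. Mfge8 bridges the same lipid to integrins, Stab1 encodes the scavenger receptor stabilin-1, which binds the lipid itself, and Tyrobp (DAP12) is the signalling adaptor of several myeloid receptors, Trem2 among them. In an infarcted heart, macrophages clear dead cardiomyocytes and neutrophils in this way.

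The study placed a 10 µm section of each of 4 mouse hearts on a Visium array, on which barcoded spots capture polyadenylated RNA from the tissue above them, so that a spot holds several cells of different types. All mice carried the Collagen1a1-GFP reporter, in which a collagen promoter marks fibroblasts with GFP, and were 8 to 12 weeks old. The control heart was healthy and labelled female. The other hearts had a permanent ligation of the left anterior descending artery: 1 was taken 3 days post infarction (dpi) and labelled female, and 2 were taken at 5 dpi, of which 1 was labelled female and 1 male. The control and 3 dpi therefore had 1 heart each, and differences from the control carry no test.

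The sexes of the 5 dpi pair went against the labels. The section labelled female held 704 UMIs of 4 Y-linked genes and the section labelled male held 1, while the control and the 3 dpi section, both labelled female, held 0. Sections are named by their labels below, and sex was not analysed. In the 5 dpi section labelled male, 623 spots of the matrix were not marked as tissue and were left out. After filtering, 1146, 1741, 1535 and 1423 spots were kept in the control, 3 dpi, 5 dpi labelled female and 5 dpi labelled male sections, with 3742105 to 9540940 UMIs of genes not encoded in mitochondria. Mitochondrially encoded genes took 40.1% of the control's UMIs and 13.3% to 21.4% in the infarcted sections, so levels are given in CPM, UMIs of a gene scaled to the same total of non-mitochondrial UMIs in every section or class. Sections shared 446 to 1165 spot barcodes pairwise, which on these arrays name positions rather than cells.

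In whole sections, Tyrobp and Stab1 were far higher in the 3 infarcted hearts than in the control, Axl, Pros1 and Mertk were moderately higher, Mfge8 was higher with a further step at 5 dpi, and Gas6 stood near the control at 3 dpi. Tyrobp levels were 93.3 CPM for the healthy heart, 728 CPM at 3 dpi, 1295 CPM at 5 dpi labelled female and 1216 CPM at 5 dpi labelled male. Stab1 stood at 47.3, 281, 401 and 299 CPM in the same order. Tyrobp was thus 7.80-fold, 13.9-fold and 13.0-fold the control's level, and Stab1 5.95-fold, 8.47-fold and 6.32-fold.

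Among the TAM receptors, Axl measured 59.9 CPM in the control and 156, 176 and 151 CPM in the infarcted sections, which did not come near the control. Mertk was rare throughout, with 13, 67, 94 and 54 UMIs in the 4 sections, or 3.47, 8.00, 9.85 and 6.49 CPM. Its ratio to the control was 2.30, 2.84 and 1.87, and the exact 95% interval of the last, 1.01 to 3.73, came close to no difference. These intervals cover counting error only, not differences between hearts.

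The bridging proteins did not move together. Pros1, a vitamin K-dependent plasma protein, went from 11.8 CPM in the control to 26.9, 32.3 and 23.9 CPM. Mfge8 measured 186 CPM in the control and 293 CPM after 3 days, then 466 and 436 CPM in the later pair, so that the 5 dpi sections lay above the 3 dpi section by 1.59-fold and 1.49-fold. Gas6 measured 66.5 CPM in the control and 63.3 CPM after 3 days, a ratio of 0.951 with an interval of 0.817 to 1.11, and 116 and 79.7 CPM at 5 dpi. The Gas6 values of the 5 dpi pair differed from each other by 1.45-fold, more than the 1.20-fold by which the section labelled male exceeded the control.

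Tyrobp, Stab1, Axl and Pros1, 4 of the 7, were at least 2-fold higher in every infarcted section than in the control. Of the 3524 genes with at least 50 CPM in a section, 26.0% were. Mertk and Pros1 did not reach 50 CPM and were not part of that count, so that 3 of 5 members compare with it. Tyrobp alone was at least 1.5-fold higher in both 5 dpi sections than at 3 dpi, where 3.66% of those genes were. With section-wide TMM factors in place of plain totals, the number at least 2-fold higher fell from 4 to 2, since the section nearest to the control came to 0.95 on the log2 scale for Axl and 0.67 for Pros1.

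**Figure D1:**
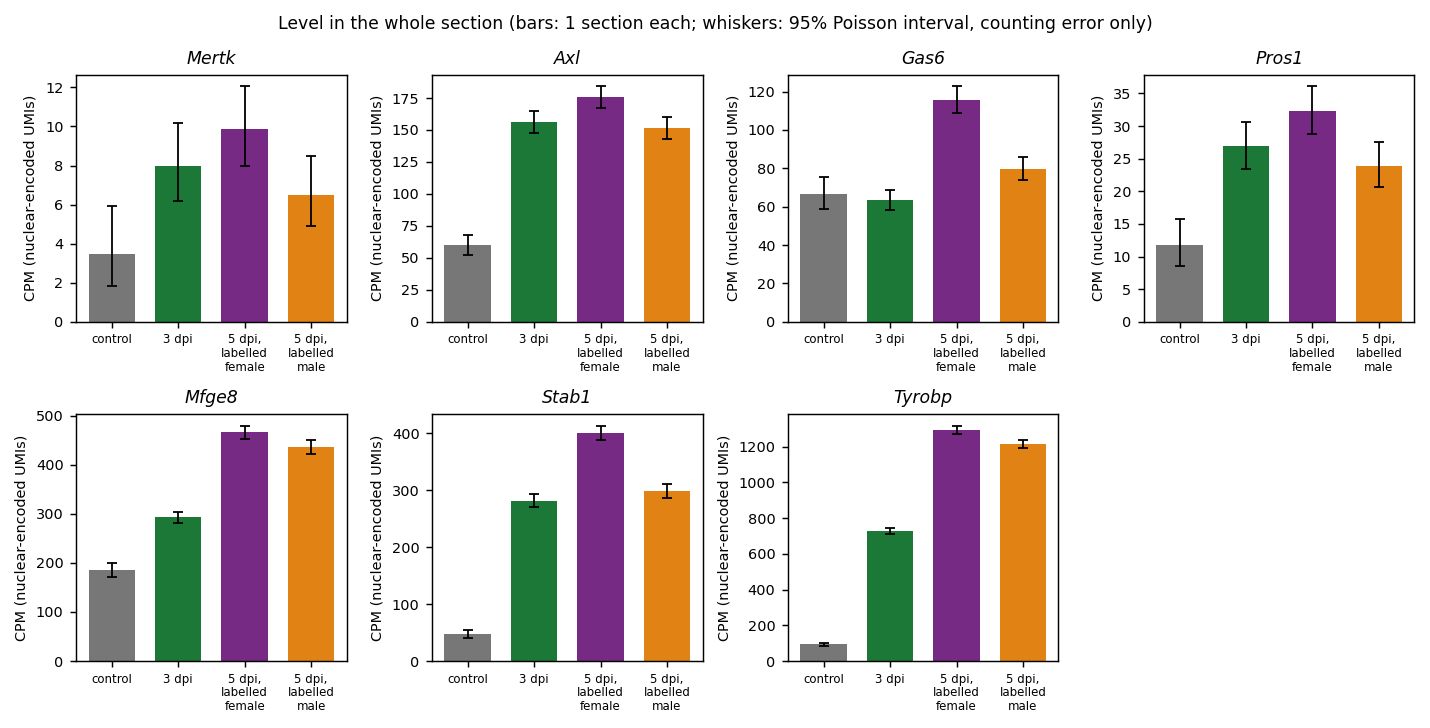
Level of each gene in the whole section, in CPM of non-mitochondrial UMIs (vertical axis, linear, from 0), for the control, 3 dpi and both 5 dpi sections. Each bar is 1 section and its whisker the exact 95% Poisson interval. Tyrobp rises from 93.3 CPM in the control to 1295 at 5 dpi labelled female, while Gas6 at 3 dpi, 63.3 CPM, lies within the interval of the control.

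The ligand Gas6 and its receptor Axl were read as shares of their summed UMIs. Gas6 gave 249 of 473 Gas6 and Axl UMIs in the control, or 52.6% (exact binomial 95% interval 48.0% to 57.2%). The share was 28.8% (26.8% to 31.0%) at 3 dpi, 39.7% (37.9% to 41.6%) at 5 dpi labelled female and 34.5% (32.4% to 36.7%) at 5 dpi labelled male. The share was lower in each infarcted section than in the 1 control heart. The intervals cover counting error only, and those of the 5 dpi pair did not overlap each other either, so the difference from the control was not tested against the spread between hearts. Among the 3 TAM receptors, Axl held 92.6%, 90.6%, 88.8% and 89.6% of their summed UMIs, and Mertk held 5.37%, 4.64%, 4.98% and 3.84%, so that Axl was the TAM receptor with the most UMIs in every section.

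Spots were next ordered within each infarcted section by the share of their UMIs that came from 12 cardiomyocyte markers, relative to the 90th percentile of that share in the section. Spots under 0.25 were called lowest-share, those from 0.25 to 0.5 low-middle, those from 0.5 to 0.75 high-middle and those at 0.75 or more highest-share. The lowest class held 516, 952 and 591 spots at 3 dpi, 5 dpi labelled female and 5 dpi labelled male, and the highest class 497, 286 and 509. None of the control's spots was in the lowest class and 1099 of its 1146 were in the highest. Markers of macrophages moved with the classes. The summed level of 8 macrophage markers was 8613 to 11971 CPM in the lowest class and 1421 to 1944 CPM in the highest, and all 8 passed the test. Fibroblast markers rose as well, from 2958 to 5101 CPM in the highest class to 14039 to 25292 CPM in the lowest, with 6 of 8 higher and 1 lower, and neutrophil markers from 24.5 to 81.4 CPM to 247 to 350 CPM, with 3 of 3 tested higher. Mesothelial markers were higher for 3 of 4 and lymphocyte markers for 2 of 2 tested. Endothelial markers were lower for 5 of 7, mural markers for 3 of 5 with 1 higher, and erythroid markers for 5 of 5. The part of these cell types in the results on the classes was not tested. A level in such a sum reflects both the number of cells of a type and the RNA each holds, and fewer cells cannot be told apart from less RNA per cell.

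**Figure D2:**
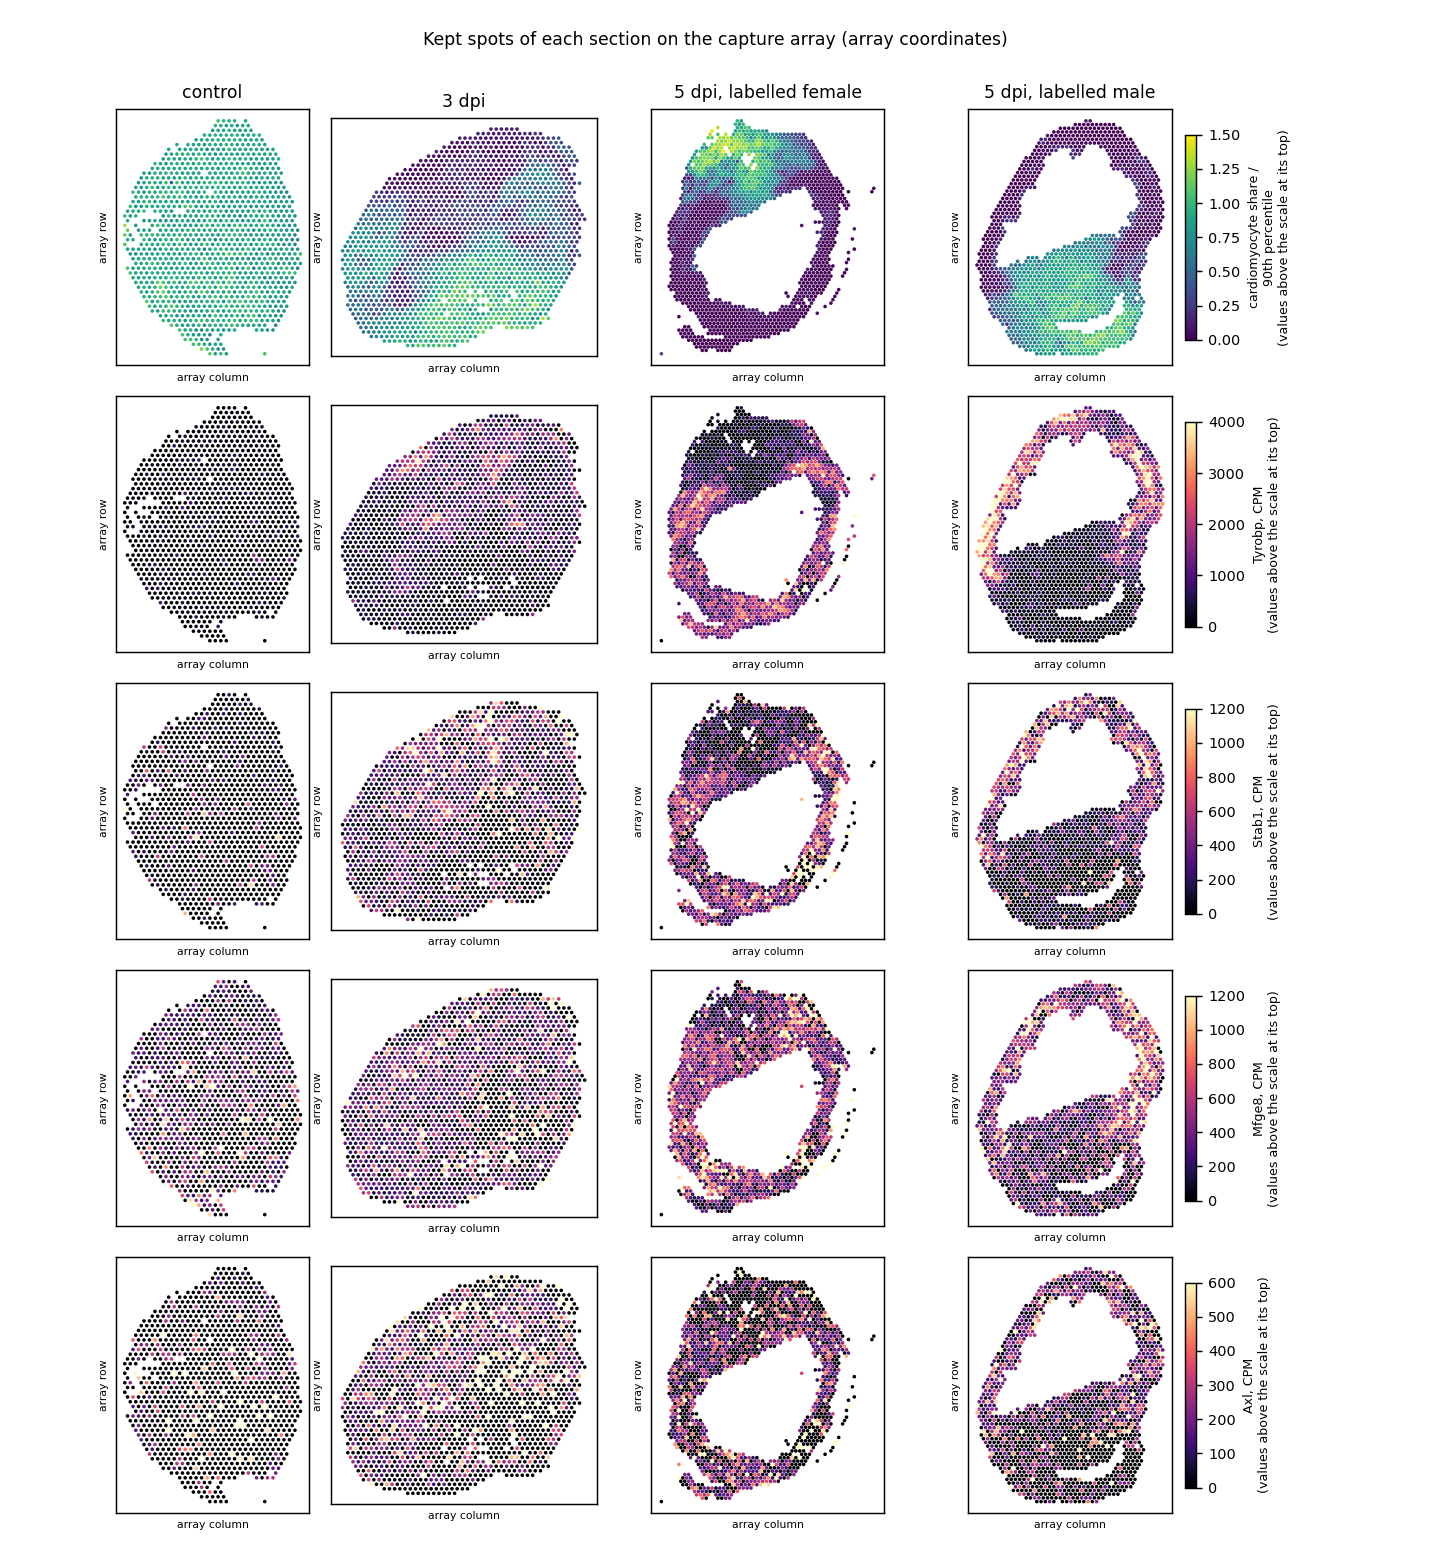
Kept spots of the 4 sections on the capture array (axes: array column and row, positions without a scale). The top row shows the cardiomyocyte share relative to the section's 90th percentile, and the rows under it the CPM of Tyrobp, Stab1, Mfge8 and Axl in single spots, with values above each colour scale drawn at its top. Tyrobp is bright where the cardiomyocyte share is low in the infarcted sections, whereas Mfge8 and Axl are scattered over the muscle as well.

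Between lowest-share and highest-share spots, 5 of the 7 members were higher and none was lower, where 30.5% of 10826 genes were higher and 27.0% lower. Tyrobp, the myeloid adaptor, measured 1278 CPM in the lowest class and 189 CPM in the highest at 3 dpi, 1665 against 224 CPM at 5 dpi labelled female, and 2089 against 196 CPM at 5 dpi labelled male. The classes did not overlap in any section. After TMM scaling the log2 fold change was 2.60 (SE 0.13), 6.06-fold, with an adjusted p of 6.3e-13 by edgeR.

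Stab1 measured 423, 492 and 472 CPM in the lowest class and 149, 146 and 109 CPM in the highest. It was higher in 3 of 3 sections, with a log2 fold change of 1.37 (SE 0.14, adjusted p = 4.6e-08). Mertk rested on few UMIs: 40, 82 and 44 in the lowest class and 9, 4 and 4 in the highest, or 12.4, 12.3 and 10.5 CPM against 5.11, 3.50 and 1.75 CPM. Its fitted difference was as large as that of Stab1 and less certain, 1.37 (SE 0.33, adjusted p = 0.0013).

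Axl and Pros1 were higher by a smaller step. Axl measured 178, 187 and 199 CPM in the lowest class against 97.7, 113 and 78.7 CPM in the highest, with a log2 fold change of 0.55 (SE 0.13, adjusted p = 0.0012). Pros1 measured 38.9, 34.9 and 32.5 CPM against 17.0, 23.6 and 14.0 CPM, with 0.55 (SE 0.18, adjusted p = 0.012). The groups were separate for both genes. The Pros1 call was lost without the 3 dpi section (adjusted p = 0.083), without the 5 dpi section labelled male (adjusted p = 0.11), by DESeq2 (adjusted p = 0.092) and with the share set on the control's scale (adjusted p = 0.051).

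Mfge8 and Gas6 did not pass the test. Mfge8 measured 295, 479 and 567 CPM in the lowest class and 253, 298 and 227 CPM in the highest, so that the classes lay close at 3 dpi and apart at 5 dpi. Its log2 fold change was 0.31 (95% interval -0.03 to 0.66, adjusted p = 0.12), and it passed without the 3 dpi section (0.61, adjusted p = 0.0027) and with no filter on low counts (adjusted p = 0.049). Gas6 measured 54.7 CPM in the lowest class and 66.5 CPM in the highest at 3 dpi, but 123 against 82.3 CPM and 92.2 against 52.5 CPM at 5 dpi. Its fitted value was -0.04 (-0.40 to 0.32, adjusted p = 0.85).

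The scaling bears on these calls. TMM factors shifted the median of all genes by 0.44 on the log2 scale relative to plain totals. Without TMM, 74.4% of the genes called were higher in the lowest class rather than 53.0%. On that scale Mfge8 was called higher (0.75, adjusted p = 0.00072) and Gas6 took the opposite sign (0.39, adjusted p = 0.055). Tyrobp, Stab1, Mertk, Axl and Pros1 stayed called higher with no TMM and with totals without cardiomyocyte markers. By DESeq2, which scales in its own way, Pros1 was not called.

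**Figure D3:**
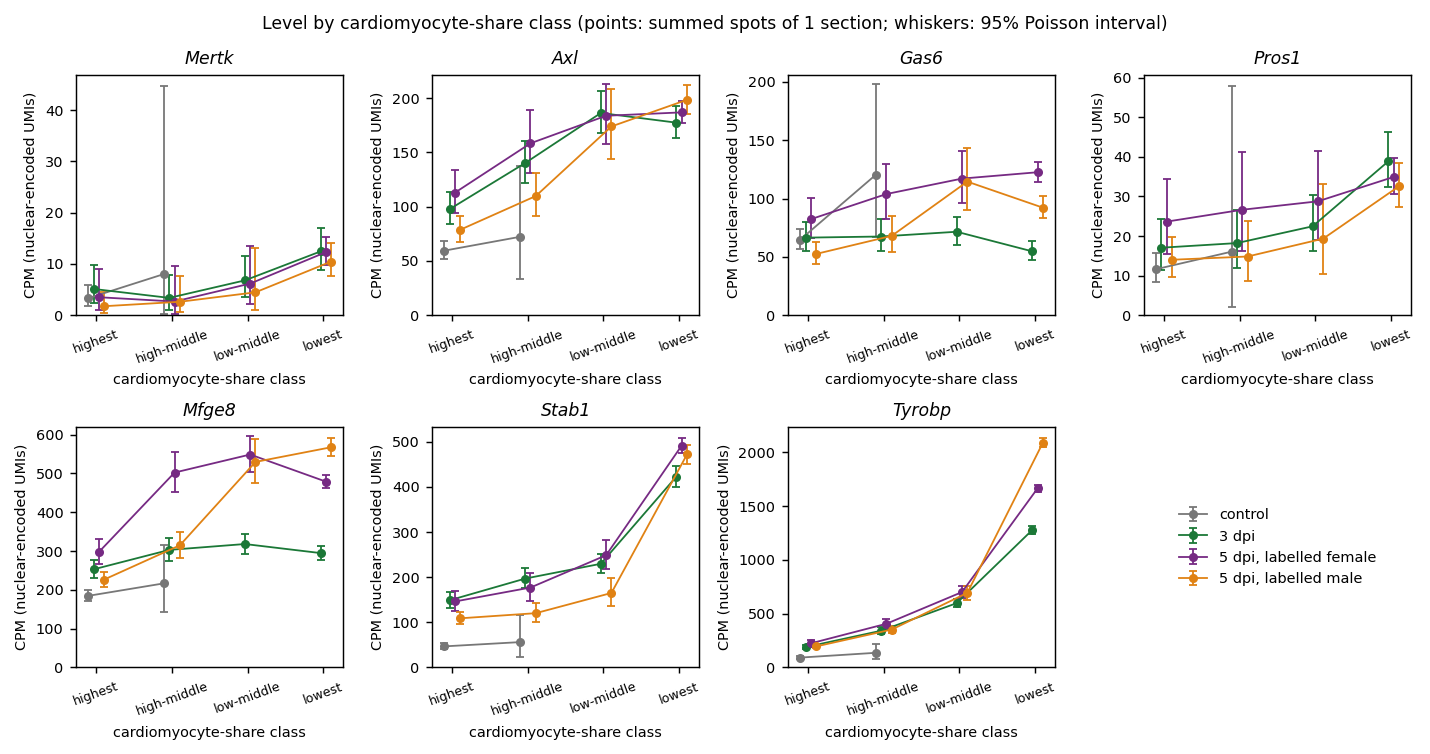
Level of each gene (CPM, linear axis from 0) in the 4 cardiomyocyte-share classes, from highest share at the left to lowest at the right, with a line per section and exact 95% Poisson intervals. The control has points for 2 classes only, of which its high-middle class rests on 46 spots. Tyrobp and Stab1 climb most between the low-middle and the lowest class, Axl has reached its level in the low-middle class, and Gas6 at 3 dpi is lower in the lowest class, at 54.7 CPM, than in the others.

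The steps of the gradient differed between genes. From highest to low-middle share, Tyrobp (1.44, SE 0.13, adjusted p = 3.5e-08), Axl (0.65, SE 0.14, adjusted p = 0.00096), Mfge8 (0.53, SE 0.17, adjusted p = 0.023) and Stab1 (0.40, SE 0.15, adjusted p = 0.049) rose, 4 members higher where 14.5% of genes were higher and 15.3% lower. Axl stood at 186, 184 and 174 CPM in the low-middle class and Mfge8 at 318, 549 and 529 CPM. Mertk, Pros1 and Gas6 had values of 0.51, 0.11 and 0.28 that did not pass, though Gas6 passed with no TMM (0.56, adjusted p = 0.027) and without the 3 dpi section (0.56, adjusted p = 0.031). The Stab1 call was lost in 7 of 10 alternatives, leaving out any 1 section among them (adjusted p = 0.053 without 3 dpi, 0.35 and 0.061 without 5 dpi labelled female and male). The Mfge8 call was lost in 4 of 10, with DESeq2 (adjusted p = 0.056), with no block (0.13) and without either 5 dpi section (0.22 and 0.17). The count fell to 2, Tyrobp and Axl, without either 5 dpi section. Of all genes called in this step 48.6% were higher, and 73.6% without TMM. In this step 8 of 8 macrophage, 4 of 8 fibroblast, 3 of 4 mesothelial and 1 of 3 neutrophil markers tested were higher. Mural markers were lower for 3 of 5 with 1 higher, erythroid markers for 4 of 5 and endothelial markers for 2 of 7. Their part was not tested.

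From low-middle to lowest share, Tyrobp (1.16, SE 0.13, adjusted p = 3.7e-07) and Stab1 (0.97, SE 0.14, adjusted p = 2.0e-05) rose further, 2 members where 11.3% of genes were higher and 14.5% lower. Stab1 went from 230, 249 and 165 CPM to the lowest-class levels above. Mertk (0.86, adjusted p = 0.053) and Pros1 (0.44, adjusted p = 0.088) did not pass. Axl (-0.11), Mfge8 (-0.21) and Gas6 (-0.32) had negative values that did not pass either, and for Axl the value was positive without TMM (0.05). Of the genes called, 43.8% were higher, against 62.3% without TMM and 33.6% by DESeq2. Without TMM, Mertk and Pros1 passed as well (adjusted p = 0.021 and 0.026). Here 8 of 8 macrophage markers and 3 of 3 neutrophil markers tested were higher, while of 8 fibroblast markers 1 was higher and 1 lower. Mural markers were lower for 3 of 5, mesothelial markers for 1 of 4 and endothelial markers for 1 of 7. The part of these was not tested.

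**Figure D4:**
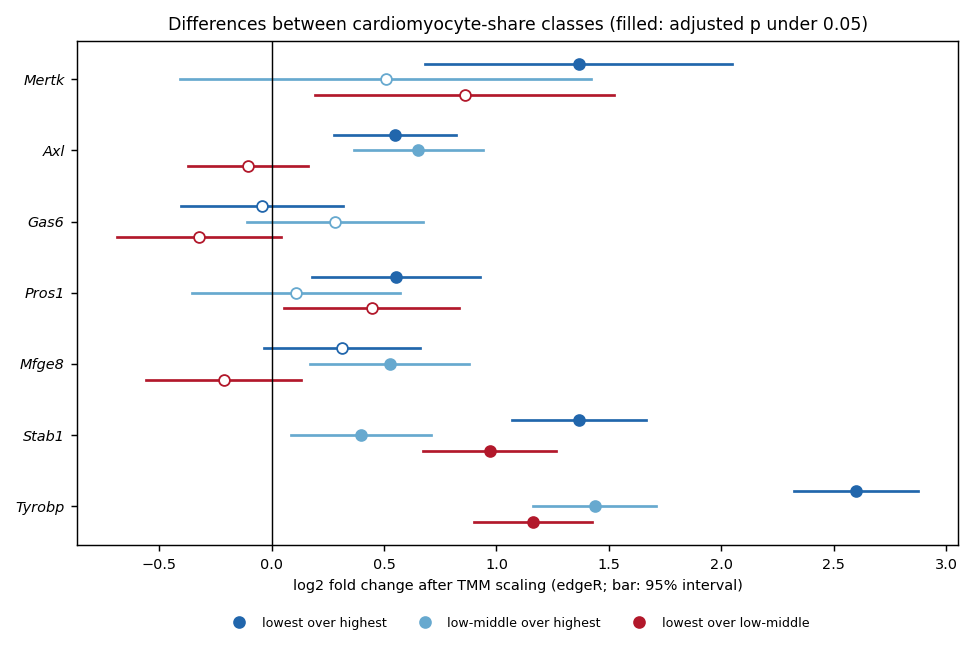
Fitted log2 fold changes of the 7 genes between cardiomyocyte-share classes (horizontal axis, after TMM scaling), with 95% intervals from edgeR over 3 infarcted sections. Filled points have an adjusted p under 0.05. Tyrobp at 2.60 lies furthest to the right, and the Gas6 intervals all include 0.

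Highest-share spots of infarcted hearts were also set against those of the control. The class is set relative to each section, and the 12 cardiomyocyte markers summed to 102049 CPM in it in the control and to 98373, 84743 and 85899 CPM in the infarcted sections, so the spots differed in muscle RNA, the part of which was not tested. In highest-share spots Stab1 stood at 46.8 CPM in the control and at 149, 146 and 109 CPM in the infarcted sections, and Tyrobp at 91.9 against 189, 224 and 196 CPM. These 2 members were at least 1.5-fold higher in each infarcted section, where 8.93% of 2911 genes with at least 50 CPM were. Mertk and Pros1 did not reach 50 CPM in this class and were not part of that count. Axl was 1.64-fold, 1.90-fold and 1.32-fold the control's 59.5 CPM. Gas6 ratios lay on both sides of 1, at 1.03, 1.27 and 0.811. The macrophage list stood at 867 CPM in the control's highest class and at 1421 to 1944 CPM in the infarcted ones, and its part in these differences was not tested.

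The members were also set against the macrophage markers themselves. For each 100 UMIs of the 8 macrophage markers, whole sections held 10.5 Tyrobp UMIs in the control and 14.2, 13.8 and 17.6 in the infarcted hearts. Stab1 had 5.32 per 100 in the healthy heart and 5.47 after 3 days, then 4.28 and 4.33 in the 5 dpi pair, whose intervals both lay below that of the control. By class it had 4.91, 4.11 and 4.05 per 100 in lowest-share spots and 8.95, 7.52 and 7.66 in highest-share spots, beside 5.40 in the control's highest class. Axl fell from 6.73 per 100 in the control to 3.04, 1.87 and 2.19, Mfge8 from 20.8 to 5.69, 4.97 and 6.31, and Gas6 from 7.48 to 1.23, 1.23 and 1.16. Mertk went from 0.391 to 0.156, 0.105 and 0.0941, and Pros1 from 1.32 to 0.523, 0.344 and 0.347. Axl, Mfge8, Gas6, Mertk and Pros1 thus had fewer UMIs per macrophage-marker UMI in each infarcted section than in the control. The macrophage list was itself higher in the infarcted sections, so a gene that rose less has a lower ratio. Such a ratio is not a level per macrophage. These genes also fell per 100 fibroblast-list UMIs, Axl from 5.03 to 1.52, 0.829 and 1.02 and Mfge8 from 15.6 to 2.86, 2.20 and 2.94. Stab1 went from 3.97 to 2.74, 1.89 and 2.02 there.

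Within the lowest-share class, spots were cut into 3 equal parts (terciles) by the share of 8 macrophage markers, none of them a member. In macrophage-rich terciles Mertk, Tyrobp, Stab1 and Gas6 were higher than in macrophage-poor terciles and Axl and Mfge8 were lower, 4 and 2 members where 11.5% of 10383 genes were higher and 11.5% lower. Mertk measured 20.9, 19.1 and 18.0 CPM in the rich terciles and 9.72, 5.64 and 4.92 CPM in the poor terciles, the steepest change of the members (1.60, SE 0.29, adjusted p = 0.00012). Tyrobp measured 1808, 2292 and 3141 CPM against 744, 977 and 1072 CPM (1.37, SE 0.07, adjusted p = 2.4e-14).

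Stab1 stood at 522, 620 and 663 CPM in the rich terciles and at 301, 335 and 299 CPM in the poor ones (0.96, SE 0.08, adjusted p = 2.1e-10). Gas6 followed with 66.8, 136 and 107 CPM against 47.6, 101 and 75.2 CPM (0.49, SE 0.11, adjusted p = 0.0012), and was higher in 3 of 3 sections. When all spots under 0.5 were cut into terciles instead, Gas6 did not pass (0.13, adjusted p = 0.44), nor did it with no block for the section (adjusted p = 0.54).

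Axl went the other way, at 166, 160 and 181 CPM in the rich terciles and 202, 229 and 209 CPM in the poor terciles (-0.34, SE 0.09, adjusted p = 0.0059). Mfge8 did so too, at 252, 425 and 503 CPM against 362, 543 and 608 CPM (-0.36, SE 0.08, adjusted p = 0.00086). Both were lower in 3 of 3 sections. The Axl call was lost without the 5 dpi section labelled female (-0.22, adjusted p = 0.25), by DESeq2 (adjusted p = 0.098) and with no block for the section (adjusted p = 0.23), and the Mfge8 call with no block (adjusted p = 0.64). Pros1 did not differ detectably (0.07, 95% interval -0.28 to 0.41). Macrophage-poor terciles also held more cardiomyocyte RNA, 6140 to 15422 CPM of the 12 markers against 1639 to 6534 CPM, and more erythroid RNA in the 5 dpi sections, with 5 of 5 erythroid markers lower in the rich terciles. Fibroblast markers were higher there for 3 of 8 and lower for 3 of 8. Endothelial markers were lower for 6 of 7, mesothelial markers for 2 of 3 tested, and neutrophil markers were higher for 3 of 3 tested, at 286 to 418 CPM against 191 to 281 CPM. The part of these in the differences was not tested.

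**Figure D5:**
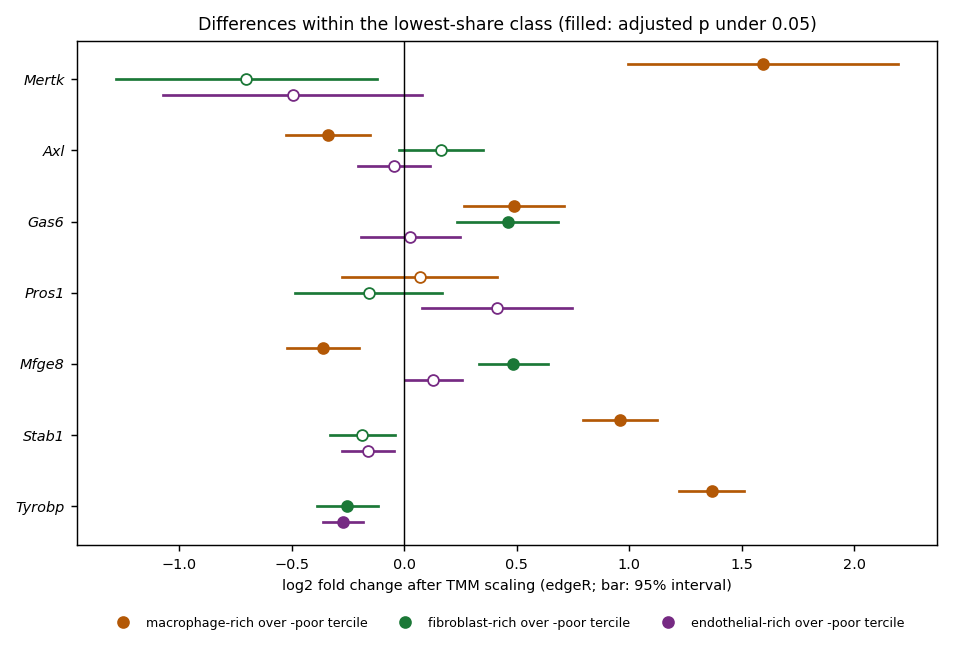
Fitted log2 fold changes of the 7 genes within lowest-share spots, between the terciles richest and poorest in macrophage, fibroblast or endothelial markers (horizontal axis, after TMM scaling), with 95% intervals from edgeR over 3 sections. Filled points have an adjusted p under 0.05. Mertk (1.60), Tyrobp and Stab1 lie to the right for the macrophage terciles, where Axl and Mfge8 lie to the left, and Mfge8 and Gas6 lie to the right for the fibroblast terciles.

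Terciles by 8 fibroblast markers gave a different division. Mfge8 and Gas6 were higher in fibroblast-rich terciles and Tyrobp was lower, 2 members where 5.30% of 10548 genes were higher and 1 where 3.70% were lower. Mfge8 measured 313, 574 and 695 CPM in the rich terciles and 252, 404 and 466 CPM in the poor terciles (0.48, SE 0.08, adjusted p = 5.9e-05). Gas6 measured 55.4, 146 and 112 CPM against 47.6, 100.4 and 80.0 CPM (0.46, SE 0.11, adjusted p = 0.0060). Tyrobp measured 1213, 1570 and 1712 CPM against 1359, 1758 and 2361 CPM (-0.25, SE 0.07, adjusted p = 0.012).

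Gas6 was thus higher in macrophage-rich and in fibroblast-rich terciles, and no other member was called higher in both. The fibroblast-based calls leaned on both 5 dpi sections: without either of them 1 of the 3 remained, Mfge8. The Gas6 and Tyrobp calls were each lost in 5 of 13 alternatives and the Mfge8 call in 1. With no block for the section none of them remained. The poor terciles held more erythroid RNA, 8385 against 1460 CPM at 3 dpi and 41086 against 9625 CPM at 5 dpi labelled female, and all 5 erythroid markers were lower in the rich terciles. Macrophage markers were lower there for 3 of 8 and neutrophil markers for 2 of 4 tested, and mural markers were higher for 3 of 5. Their part in these differences was not tested. Mertk (-0.70, adjusted p = 0.13), Stab1 (-0.19, adjusted p = 0.10), Axl (0.16, adjusted p = 0.33) and Pros1 (-0.16, adjusted p = 0.65) did not pass. Stab1 passed without the 3 dpi section (-0.21, adjusted p = 0.043), and Stab1 and Axl passed with a fibroblast list without collagens (adjusted p = 0.033 and 0.030).

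Terciles by 7 endothelial markers changed 1 member. Tyrobp was lower in endothelial-rich terciles, at 1132, 1487 and 1987 CPM against 1399, 1761 and 2249 CPM (-0.27, SE 0.04, adjusted p = 9.9e-05), where 1.51% of 10318 genes were lower and 1.78% higher. All 8 macrophage markers were lower there too, as were 3 of 4 mesothelial markers, while 2 of 3 neutrophil markers tested and 1 of 5 mural markers were higher. Their part in the Tyrobp difference was not tested. Pros1, which endothelial cells are known to make, was higher in 3 of 3 sections, at 46.2, 46.0 and 37.6 CPM against 36.1, 27.5 and 34.9 CPM, but did not pass (0.41, SE 0.16, adjusted p = 0.23).

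Time was examined inside the lowest-share class, which is set relative to each section. The fibroblast and macrophage lists were themselves higher there in both 5 dpi sections than at 3 dpi. Their part in the ratios below was not tested. For each 100 UMIs of the fibroblast list, Mfge8 had 2.10, 1.89 and 2.46 at 3 dpi, 5 dpi labelled female and 5 dpi labelled male, and Gas6 had 0.390, 0.485 and 0.400. Gas6 was 2.24-fold and 1.68-fold as high in the 5 dpi sections as in the 3 dpi section, and Mfge8 1.62-fold and 1.92-fold. Tyrobp measured 1278 CPM at 3 dpi against 1665 and 2089 CPM in the later pair. Axl (1.05-fold and 1.12-fold) and Stab1 (1.16-fold and 1.12-fold) were close to their 3 dpi level, and Mertk (0.988 and 0.841) and Pros1 (0.898 and 0.838) lay at or under it. With 1 heart at 3 dpi these ratios have no test against the spread between hearts, and the 5 dpi pair differed by up to 1.33-fold in Gas6 and by 1.25-fold in Tyrobp. The change in the difference between lowest and highest class from 3 to 5 dpi was fitted as an interaction, a test chosen after the values had been seen. With 1 section at 3 dpi its spread comes from the 5 dpi pair, so it cannot show a difference between days. By edgeR it was 1.04 for Gas6 (SE 0.30, adjusted p = 0.088) and 0.85 for Mfge8 (SE 0.28, adjusted p = 0.16), and no member passed, while 153 of 11229 genes did.

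The Gas6 share of Gas6 and Axl UMIs in lowest-share spots was 23.6% (20.6% to 26.8%) at 3 dpi, 39.6% (37.5% to 41.7%) at 5 dpi labelled female and 31.7% (29.1% to 34.4%) at 5 dpi labelled male. In highest-share spots it was 40.5%, 42.2% and 40.0%, and 52.1% in the control. Lowest-share spots at 3 dpi therefore had the lowest share of the ligand among these sums, and the intervals of the 3 sections did not overlap in that class.

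Other genes of the pathway were read from a list of 50, of which 43 were tested between lowest-share and highest-share spots. Of these, 30 were higher, 4 were lower and 9 did not pass, with a median of 1.10 on the log2 scale where the median of all genes was 0.09, and 30.5% of all genes were higher and 27.0% lower. The other 7 listed genes did not pass the filter on low counts, and listed genes that passed through the lowest class alone had to differ. Of the receptors other than Tyro3, 9 of 12 tested were higher and 2 lower. The 9 and the 30 include Cd300lf, Cd300lb and Havcr2, which passed the filter through the lowest class and had to come out higher. No count without such genes was made, so these counts are no result on the list. The lipid-binding immune receptors Cd300lf, Cd300lb and Havcr2 had at most 2 UMIs in the highest class of any section, so no fold is given. In the lowest class Cd300lf had 84, 95 and 47 UMIs, Cd300lb 55, 102 and 47, and Havcr2 44, 129 and 59. Trem2, a lipid receptor that signals through Tyrobp, was higher (3.09, SE 0.21, adjusted p = 4.0e-11), with 937, 2741 and 1957 UMIs in the lowest class and 57, 63 and 48 in the highest.

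Lower in lowest-share spots were Cd36 (-2.25, SE 0.15), a fatty acid transporter that muscle and capillary cells also use, the scavenger receptor Scarf1 (-0.83, SE 0.30), and Atp11a (-0.58, SE 0.16) and Tmem30a (-0.39, SE 0.14), which belong to the flippase that keeps phosphatidylserine inside the membrane. Tyro3, the TAM receptor outside the 7, was higher (1.53, SE 0.35, adjusted p = 0.00076) from 36, 103 and 67 UMIs in the lowest class and 5, 5 and 9 in the highest. Of the engulfment machinery 8 of 11 genes were higher, and of the lipid handling genes 3 of 6, beside 30.5% of all genes. Both proteases that shed Mertk and Axl, Adam17 (1.10, SE 0.17) and Adam10 (1.07, SE 0.15), were higher, and the inhibitor Timp3 (0.40, adjusted p = 0.18) did not pass.

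Within the lowest-share class the same list was set against macrophage content. In macrophage-rich terciles 20 of 42 genes tested were higher and 2 lower, beside 11.5% of all genes each way, with the highest values for Cd300lf (1.41, SE 0.28), Trem2 (1.40, SE 0.10), Cd300lb (1.32, SE 0.27) and the mitochondrial carrier Ucp2 (1.28, SE 0.08). Megf10 (-1.01, SE 0.37, adjusted p = 0.049) and the integrin subunit Itgb3 (-0.87, SE 0.19), partner of Itgav in the receptor for Mfge8, were lower. In fibroblast-rich terciles 2 of 44 were higher, Tyro3 (0.92, SE 0.25, adjusted p = 0.017) and Lrp1 (0.23, SE 0.07), a count near the 5.30% of all genes. There 12 were lower, beside 3.70% of all genes, led by Cd300lf (-1.09, SE 0.24), Cd300lb (-0.91, SE 0.25), Nr1h3 (-0.83, SE 0.20) and Dock2 (-0.77, SE 0.16). In endothelial-rich terciles Itgb3 was higher (0.84, SE 0.19), 1 of 43 beside 1.78% of all genes, and 4 of 43 were lower, beside 1.51%, Trem2 (-0.41, SE 0.06), Ucp2 (-0.37, SE 0.07), Lrp1 (-0.32, SE 0.05) and Sirpa (-0.30, SE 0.07).

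The intermediate steps repeated part of this order. Between low-middle and highest share 19 of 43 genes were higher, beside 14.5% of all genes, Trem2 among them (1.90, SE 0.22), and Cd36 was lower (-1.41, SE 0.15), beside 15.3%. The 19 include Megf10, Cd300lf and Havcr2, which had at most 2 UMIs in the highest class of any section. The count therefore rests in part on genes that were nearly absent from one side. Between lowest and low-middle share 16 of 43 were higher, beside 11.3% of all genes. Among them were Cd300lb and Cd300lf, which had 8, 0 and 0 and 10, 3 and 2 UMIs in the low-middle class, Vav1 (1.36, SE 0.17) and the cholesterol exporter Abcg1 (1.26, SE 0.23), and Megf10 (-1.11, SE 0.31), Cd36 (-0.84, SE 0.15) and Tmem30a (-0.41, SE 0.14) were lower, beside 14.5%. Megf10, an engulfment receptor best known from glia, rested on 22, 21 and 8 UMIs in the low-middle class, or 11.5, 21.6 and 11.9 CPM.

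The genes closest to each member in pattern were found by Pearson correlation of log2(CPM + 1) over 14 sums of section and class, among 5774 genes. The points share sections, depth and the muscle gradient, so the correlations are a description. Tyrobp ran with C1qb (0.994), Npc2 (0.993) and Cmtm7 (0.992), and Stab1 with Ptpn6 (0.979), Cd68 (0.978) and Lgmn (0.976). Axl ran with Actn1 (0.986) and Tuba1a (0.984), and Mfge8 with Dkk3 (0.980), Ltbp3 (0.979) and Ssc5d (0.964). Pros1 was closest to Septin9 (0.962), Cerk (0.959) and Vsir (0.954). The nearest genes of Mertk, Mon2 (0.932), Max (0.922) and Slc37a2 (0.921), and of Gas6, 2310022B05Rik (0.885), Timp3 (0.876) and Igfbp6 (0.873), were less close.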

How the data were processed

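Per the file headers, the deposited matrices hold raw UMI counts per gene and spot from Space Ranger 1.3.1. The processing notes name mm10 and the methods an Ensembl-based mouse reference extended with GFP, so no genome coordinates are given. Depth and precision are stated with the results: intervals are exact at 95% and cover counting error only. Following the limits in the methods, spots marked as tissue were dropped when they had fewer than 500 UMIs, fewer than 250 detected genes or a mitochondrial share above 50%. Counts were summed per section and class, since spots are not replicates. Sums of 3 infarcted sections (12 for classes, 9 for terciles) were tested with edgeR 4.0.16 (glmQLFit, glmQLFTest, TMM, filterByExpr, section as a block) and Benjamini-Hochberg adjustment over all genes tested, threshold 0.05. Marker genes that define a split were left out of its test. With the section as a block, p-values measure how class or tercile differences vary among these 3 sections of single hearts. The spread of levels between hearts is removed by the block. DESeq2 1.42.0, other scalings, filters, splits and leaving out each section were alternatives, and the fit was tested on simulated data. Between lowest and highest share it recovered 15% of genes changed by 0.5 on the log2 scale and 66% of those changed by 1. For the terciles it recovered 30% to 40% and 72% to 81%. A gene that did not pass may therefore still differ. The members and lists were chosen with earlier results of these data known. By rule, the text names the 7 members, of a list of 50 pathway genes the 4 highest and 4 lowest values among those passing a comparison, and the 3 genes most like each member with a mean of at least 20 CPM, of which 1 is not reported here. Other pathway genes named (Adam17, Adam10, Timp3) were added after their values were seen.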

Additional observations from a re-analysis of the deposited data

Results flagged for a closer look

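Gas6 had a lower level in lowest-share than in highest-share spots at 3 dpi and a higher one in both 5 dpi sections, with log2 ratios of CPM of -0.281, 0.5748 and 0.8121. A fit of the difference between days, chosen after these values were seen, did not pass (adjusted p of 0.088 by edgeR), and with 1 section at 3 dpi its spread comes from the 5 dpi pair. Axl between the lowest and low-middle classes also took opposite signs at 3 and 5 dpi, with -0.0706, 0.0241 and 0.1906, and so did Mertk between endothelial-rich and endothelial-poor terciles, with 0.1934, -0.6314 and -0.8986. For Axl and Mertk the difference between days was not tested, and 3 dpi is 1 section.

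The spots of the 5 dpi section labelled male that were not marked as tissue held 5 members with exact 95% Poisson intervals wholly above those of the control section: Axl at 176.3 CPM, Pros1 at 32.3 CPM, Mfge8 at 361.1 CPM, Stab1 at 209.1 CPM and Tyrobp at 1061 CPM. Gas6 at 77.2 CPM and Mertk at 8.97 CPM were also above the control's intervals, but their own intervals overlapped them. These spots enter no comparison of the report.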

How the results depend on the processing

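Of 147 alternative values for counts of members or genes, 119 stayed within the limits set for them, 23 were lower, 4 higher and 1 moved. Of 537 for single genes, 467 kept their direction and side of the threshold, 33 lost a call, 14 gained one, 13 untested values moved and 10 changed sign. The replicate block is the section, since the classes of a section come from the same heart. With no replicate block the members passing fell from 4 to 2 between low-middle and highest share, from 6 to 3 for macrophage terciles, from 3 to 0 for fibroblast terciles and from 1 to 0 for endothelial terciles. All genes called without the block fell from 2397 to 753 for macrophage terciles, from 949 to 0 for fibroblast terciles and from 340 to 0 for endothelial terciles. In the last 2, edgeR then had 1008 and 525 genes at an unadjusted p under 0.05, while DESeq2 with the block called 378 and 109. DESeq2 called 1142 genes for macrophage terciles, and 2 members between low-middle and highest share. Between lowest and low-middle share 4 members passed rather than 2 with no TMM and with totals without cardiomyocyte markers. For fibroblast terciles 1 member passed with all spots under 0.5 and 5 with a list without collagens (1923 genes), and a split into 2 equal parts gave 592 genes. TMM factors left 2 members at least 2-fold higher in whole sections.

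Leaving out each section in turn gave 4 to 5 members for lowest against highest share, 2 to 4 for low-middle against highest, 2 for lowest against low-middle, 5 to 6 for macrophage, 1 to 4 for fibroblast and 1 for endothelial terciles, and 4 to 5 for whole sections. All genes called ranged from 5148 to 5205, 2321 to 2339, 1585 to 2244, 1570 to 1997, 354 to 1119 and 138 to 281 in the order of the tests. The lowest counts came without the 5 dpi section labelled female, except the first, which came without the one labelled male. Signs changed for Gas6 between lowest and highest share (0.39 with no TMM, 0.26 with totals without cardiomyocyte markers, 0.0331 with no block, and -0.2329 to 0.2924 leaving out a section), Axl between lowest and low-middle share (0.0544 and 0.0135 under the same scalings), Pros1 in macrophage terciles (-0.0433 with a list without Lyz2, and -0.1768 to 0.247 leaving out a section), Axl in endothelial terciles (-0.1164 to 0.0113 leaving out a section) and Gas6 there (-0.1139 to 0.102 leaving out a section). None of these passed the test in the main analysis, and the cause was not tested. Mertk has at most 9 UMIs in the highest class of an infarcted section, which limits its precision.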
